A study of Mus musculus with 24 samples.

Results

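The mRNA of 8 T-cell co-stimulatory and checkpoint genes, Cd40, Cd80, Cd86, Cd274, Pdcd1lg2, Icosl, Tnfsf9 and Tnfrsf9, was examined in mouse pulmonary fibroblast cultures. The genes were taken by symbol from the 55291 gene names counted in each library, and 7 of the 8 passed the filter on low counts that left 16258 genes for testing. The exception was Pdcd1lg2. The fibroblasts came from the lungs of 4- to 8-week-old WT C57BL/6 mice or of TLR4-/- mice on the C57BL/6 background, each group from a pool of 3 to 4 lungs, and were used at passages 3 to 6. After a night in reduced-serum medium, cells of each genotype received PBS, recombinant mouse CIRP (rmCIRP, at 1 μg/mL), rmTGF-β1 (at 2 ng/mL) or both for 24 h, which gave 8 conditions with 3 libraries each. CIRP is the cold-inducible RNA-binding protein, which acts as a danger signal once it is outside cells, and TGF-β1 is a growth factor known for driving fibrosis. The question for these genes was how their mRNA responded to rmCIRP with and without rmTGF-β1, and how that response compared between the genotypes.

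T cells need a second, co-stimulatory signal beside the antigen receptor. CD80 and CD86 give it by binding CD28 and withdraw it by binding CTLA-4, and ICOS ligand (Icosl) binds ICOS on activated T cells. PD-L1 (Cd274) and PD-L2 (Pdcd1lg2) bind the inhibitory receptor PD-1. CD40 is a receptor of the TNF receptor family that answers to CD40 ligand on helper T cells, 4-1BB ligand (Tnfsf9) is a ligand of the TNF family, and 4-1BB (Tnfrsf9) is the receptor of that ligand. Professional antigen-presenting cells are the classical carriers of most of these molecules, and stromal cells, fibroblasts among them, can carry CD40 and PD-L1 as well.

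Upstream sequence shows what surrounds the start sites of members that moved together, moved the other way or stayed near 0. RefSeq promoters of GRCm38.p6 were found for 5 of the 8 genes, with 6 start sites in all. None was found for Cd40, Cd86 and Tnfsf9. The lines below give the 250 bases before the start site, all on the plus strand and 5′ to 3′, for Cd274 and its neighbour Pdcd1lg2, for Icosl, for the downstream start site of Tnfrsf9 and for Cd80. Capitals mark motif matches, and positions count back from -1, the base before the start site.
Cd274, chr19:29367188-29367437: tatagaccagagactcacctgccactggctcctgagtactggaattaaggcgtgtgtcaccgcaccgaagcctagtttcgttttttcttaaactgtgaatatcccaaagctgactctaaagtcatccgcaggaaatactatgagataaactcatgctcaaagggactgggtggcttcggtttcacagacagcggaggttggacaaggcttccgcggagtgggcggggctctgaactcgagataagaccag
Pdcd1lg2, chr19:29410669-29410918: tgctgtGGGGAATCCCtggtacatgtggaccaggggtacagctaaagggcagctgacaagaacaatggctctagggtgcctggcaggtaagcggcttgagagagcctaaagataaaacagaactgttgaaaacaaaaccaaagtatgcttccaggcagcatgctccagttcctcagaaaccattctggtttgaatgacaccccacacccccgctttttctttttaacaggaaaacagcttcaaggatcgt
Icosl, chr10:78069118-78069367: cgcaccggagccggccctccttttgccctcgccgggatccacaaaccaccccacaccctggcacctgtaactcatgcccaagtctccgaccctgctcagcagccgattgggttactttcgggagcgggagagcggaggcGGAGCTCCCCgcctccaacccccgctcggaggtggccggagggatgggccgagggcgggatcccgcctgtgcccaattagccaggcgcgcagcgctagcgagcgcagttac
Tnfrsf9, chr4:150927749-150927998: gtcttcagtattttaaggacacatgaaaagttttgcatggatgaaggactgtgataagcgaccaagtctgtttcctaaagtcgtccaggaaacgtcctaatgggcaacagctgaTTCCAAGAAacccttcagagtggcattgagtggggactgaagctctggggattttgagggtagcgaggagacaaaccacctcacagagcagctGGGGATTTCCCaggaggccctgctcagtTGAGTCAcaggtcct
Cd80, chr16:38458683-38458932: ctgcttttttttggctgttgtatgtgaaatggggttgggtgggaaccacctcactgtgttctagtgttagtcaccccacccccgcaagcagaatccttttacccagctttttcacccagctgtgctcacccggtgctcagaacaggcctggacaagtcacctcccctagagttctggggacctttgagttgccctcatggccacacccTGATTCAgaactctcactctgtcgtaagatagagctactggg

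The motifs searched on both strands were the NF-kB consensus, the AP-1 site TGANTCA, the GAS element TTCNNNGAA and the interferon response element GAAANNGAAA. Among 32851 mouse promoters of this length, 7.25% held an NF-kB consensus match, 6.75% an AP-1 match, 7.02% a GAS match and 2.98% an interferon response element. The Icosl window held an NF-kB match from -111 to -102. The Pdcd1lg2 window held one from -244 to -235. The downstream Tnfrsf9 window held a GAS match from -136 to -128, 2 overlapping NF-kB matches between -43 and -33 and an AP-1 match from -15 to -9, and the window of the other Tnfrsf9 start held none of the 4 motifs. The Cd80 window held an AP-1 match from -42 to -36, and the Cd274 window held no match. A match describes letters in a window, and binding was not measured.

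The libraries held 29853346 to 39664606 reads on genes. Fibroblast genes were abundant in all of them (summed normalized counts of 9 markers, 595123 to 821195), and macrophage genes were present in all of them. The label of the genotype was not borne out by Tlr4 mRNA: its normalized count was 630 to 802 in the WT libraries and 702 to 941 in those labelled TLR4-/-, and with PBS it was higher in the latter (log2 fold change 0.25, SE 0.06, edgeR quasi-likelihood adjusted p = 0.00123). Gene counts do not tell one exon from another, and these libraries are called "labelled TLR4-/-" below. Xist, transcribed in female cells, had at most 3 reads in any WT library and at least 4403 in every labelled TLR4-/- library. The Y-linked gene Ddx3y had 3476 to 5044 reads in the WT libraries and 1738 to 2716 in the labelled TLR4-/- libraries, which thus held transcripts of both sexes, and the sex makeup of the cultures differed with the label. Replicates differed least between libraries 1 and 3 of WT with both factors (chi-square per degree of freedom 2.55) and most between libraries 1 and 3 labelled TLR4-/- with both factors (47.1). For the third library of the latter condition, the values it moved most among the 8 genes are given with and without it; the order of conditions and the marker sums without it were added after seeing the data. The sources do not say whether the 3 libraries of a condition came from separate cultures, so p-values measure the spread between these libraries. Normalized counts are counts divided by the size factor of the library. Fold changes and their SE came from the quasi-likelihood (QL) test of edgeR, p was adjusted by Benjamini-Hochberg over the 16258 genes, and a gene was called at an adjusted p under 0.1.

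Compared with PBS, rmCIRP increased the mRNA of 5 of the 7 tested genes in WT cells and decreased that of 1. The increases were in Cd274, Cd40, Icosl, Cd86 and Tnfrsf9, and the decrease was in Cd80. Among all genes tested, 19.8% were higher and 24.1% lower, and the median log2 fold change was 1.51 over the 7 genes against -0.02 over all genes. In bulk RNA, more of the cells that carry an mRNA and more mRNA per cell cannot be told apart. Summed macrophage markers ran from 90890 to 99113 normalized counts with PBS and from 79769 to 85058 with rmCIRP. Most of the sum, here and in the sums below, was the single marker Lyz2, with means of 78175 with PBS and 62462 with rmCIRP. Of the 13 markers, 9 were lower. The other 4, Fcgr1 (log2 fold change 2.26), Cd14 (1.70), Adgre1 (0.98) and Ptprc (0.56), were higher, and the part of macrophages in the changes of the 7 genes was not tested.

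Cd274, which encodes PD-L1, moved most. The 3 WT libraries with PBS had 135, 98.8 and 123 normalized counts, and those with rmCIRP had 2328, 2256 and 2729. The groups lay far apart, with means of 119 ± 18.3 (SD, n = 3) and 2438 ± 254 (SD, n = 3), a ratio of 20.5. The log2 fold change was 4.35 (SE 0.20, edgeR QL adjusted p = 9.38e-14). Its neighbour on chromosome 19, Pdcd1lg2, which encodes PD-L2, was close to absent: 0 reads in all 3 WT libraries with PBS and 1, 3 and 3 with rmCIRP. Over the 3 libraries with rmCIRP this came to 7 reads of Pdcd1lg2 beside 7149 of Cd274. Over all 24 libraries Pdcd1lg2 had 32 reads and never more than 6 in one, which is too few for a fold change. Of these, 20 came from the 12 WT libraries and 12 from the 12 labelled TLR4-/- libraries. Pdcd1lg2 overlaps an opposite-strand gene, A930007I19Rik, which had at most 48 reads in any library. Cd274 overlaps another, AC119228.1, which was absent from the counted names. The strand setting of the counting was not stated in the sources used here.

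Cd40 followed. Its normalized counts were 112, 132 and 104 with PBS and 1107, 1046 and 1258 with rmCIRP. The lowest library with rmCIRP was far above the highest with PBS, and the means of 116 ± 14.3 and 1137 ± 109 (SD, n = 3 each) differed 9.81-fold. The log2 fold change was 3.29 (SE 0.10, edgeR QL adjusted p = 5.43e-17).

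The ligands of CD28 and ICOS split. Icosl had 54.9, 59.9 and 47.9 normalized counts with PBS and 255, 274 and 251 with rmCIRP, which gave a log2 fold change of 2.25 (SE 0.15, edgeR QL adjusted p = 3.88e-11). Cd86 had 29.8, 42.9 and 52.0 with PBS and 123, 103 and 130.4 with rmCIRP, which gave a log2 fold change of 1.51 (SE 0.24, edgeR QL adjusted p = 2.76e-05). In both genes the groups did not overlap, and Cd86 had the widest relative spread among its PBS libraries. Cd80 went the other way, from 910.5, 889 and 909.7 with PBS to 793, 757 and 846 with rmCIRP, which gave a log2 fold change of -0.18 (SE 0.05, edgeR QL adjusted p = 0.0115). The number of Cd80 reads for each Cd86 read, taken within a library, went from a median of 20.7 (range 17.5 to 30.5) with PBS to 6.48 (6.44 to 7.36) with rmCIRP. These are ratios of reads and not of molecules.

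The 4-1BB pair moved less. Tnfrsf9, the receptor, had 404, 520.2 and 515 normalized counts with PBS and 878, 735 and 824 with rmCIRP, which gave a log2 fold change of 0.75 (SE 0.09, edgeR QL adjusted p = 1.16e-06). All 3 libraries with rmCIRP were above all 3 with PBS. Tnfsf9, the ligand, had 178, 185 and 192 with PBS and 193, 205 and 227 with rmCIRP. The groups nearly met without overlapping, and the log2 fold change of 0.17 (95% interval -0.00 to 0.34, adjusted p = 0.118) was not called. It was called when the filter kept genes with a mean count of at least 10 (0.19, adjusted p = 0.0764) and without the first rmCIRP library, at 0.22 (adjusted p = 0.0728). Both genes overlap an opposite-strand gene, Camta1 for Tnfrsf9 and Gm11110 for Tnfsf9, which had at most 253 and 104 reads in any library, and the strand setting of the counting was not stated in the sources used here.

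**Figure D1:**
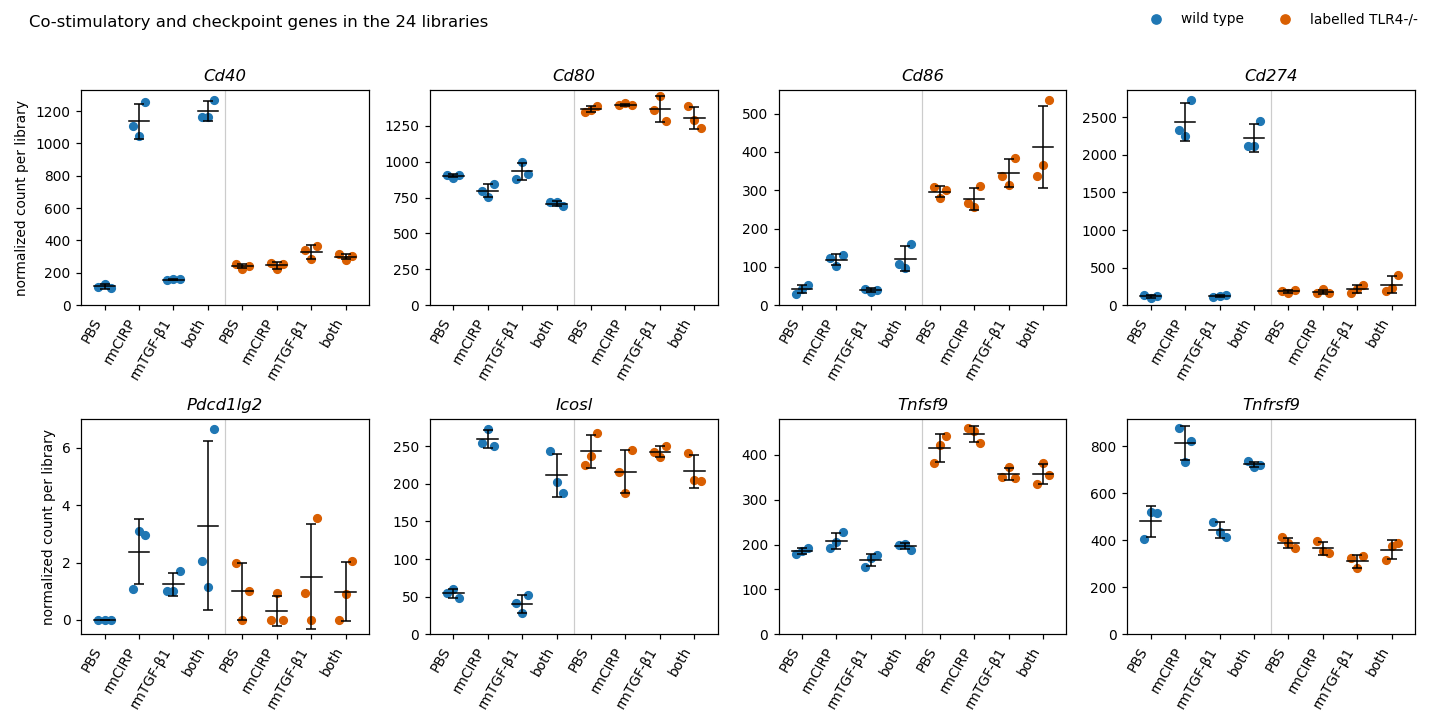
Normalized counts (vertical axis, linear and scaled for each gene) of the 8 genes in the 24 libraries, by treatment, with WT in blue and labelled TLR4-/- in orange. Points are libraries, and the horizontal lines with error bars are the mean and SD of 3 libraries; Cd274 and Cd40 stood out in the WT libraries with rmCIRP, at 2256 or more and 1046 or more, and Pdcd1lg2 stayed at or below 6.65.

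Set side by side per kilobase of exon, the order of the levels changed with rmCIRP. With PBS, WT cells had most Cd80 (244 normalized counts per kb), followed by Tnfrsf9 (176) and Tnfsf9 (143). Cd40 (34.0) and Cd274 (32.8) were nearly level, and Icosl (11.7) and Cd86 (11.4) were lowest of the 7. With rmCIRP, Cd274 was highest at 673 per kb, followed by Cd40 (334), Tnfrsf9 (298), Cd80 (216), Tnfsf9 (162), Icosl (56.2) and Cd86 (32.4). The ranges of Cd40 and Cd274 with PBS overlapped, as did those of Icosl and Cd86, and with rmCIRP those of Cd40 and Tnfrsf9 did. The median number of Cd274 reads for each Cd80 read went from 0.135 with PBS to 2.98 with rmCIRP.

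The response to rmCIRP was measured a second time in WT cells that also received rmTGF-β1. Compared with rmTGF-β1 alone, both factors together gave higher mRNA of 6 of the 7 genes and lower mRNA of 1, where 20.5% of all genes were higher and 21.7% lower. The median log2 fold change was 1.63 over the 7 genes and -0.01 over all genes, and summed macrophage markers were 82509 to 94437 normalized counts with rmTGF-β1 and between 78386 and 88481 with both. Cd274 had 109, 117 and 139 normalized counts with rmTGF-β1 and 2113, 2120.4 and 2446 with both, a log2 fold change of 4.18 (SE 0.19, edgeR QL adjusted p = 1.51e-13). Cd40 had 153, 163 and 159 with rmTGF-β1 against 1162, 1162 and 1269.9 with both, a log2 fold change of 2.91 (SE 0.09, edgeR QL adjusted p = 2.13e-16). Both genes again showed wide gaps between the groups. Icosl had 41.4, 28.0 and 51.6 normalized counts with rmTGF-β1 against 244, 203 and 187 with both (log2 fold change 2.37, SE 0.16), and Cd86 had 43.4, 33.0 and 39.7 against 108, 96.3 and 158 (1.63, SE 0.24). Tnfrsf9 had 479, 434 and 413 against 735, 713 and 719 (0.71, SE 0.09). None of these 3 genes overlapped between the groups. Tnfsf9 passed the threshold here, at 0.24 (SE 0.09, edgeR QL adjusted p = 0.0326), with 150.3, 170.0 and 177 normalized counts against 199.8, 202 and 188 with both. It did not pass with no filter on low counts (adjusted p = 0.131) or without the first rmTGF-β1 library (0.17, adjusted p = 0.167). Cd80 was lower in all 3 libraries with both factors, at 719, 716 and 689 normalized counts against 883, 1001 and 912, a log2 fold change of -0.40 (SE 0.06, edgeR QL adjusted p = 6.16e-06).

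Whether rmTGF-β1 altered the response to rmCIRP was tested as an interaction in WT cells. It was called by edgeR's quasi-likelihood test for 0 of the 7 genes and for 0.0492% of all genes, and by DESeq2 for 0 of the 7. At an unadjusted p under 0.05, edgeR gave 2 of the 7 and 917 of the 16258 genes. The 2 were Cd40 (difference in log2 response -0.37, SE 0.14, 95% interval -0.67 to -0.08, adjusted p = 0.772) and Cd80 (-0.22, SE 0.08, 95% interval -0.38 to -0.06, adjusted p = 0.718). For Cd274 the difference was -0.17, with a 95% interval of -0.79 to 0.44.

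On its own, rmTGF-β1 changed 1 of the 7 genes in WT cells, where 5.77% of all genes were higher. Cd40 rose from 112, 132 and 104 normalized counts with PBS to 153, 163 and 159, a log2 fold change of 0.45 (SE 0.12, edgeR QL adjusted p = 0.0209). The groups did not overlap, and the call was lost without the third PBS library (0.38, adjusted p = 0.107). Those of Tnfsf9, which was not called, did not overlap either, at 178, 185 and 192 with PBS and 150.3, 170.0 and 177 with rmTGF-β1. Icosl had 54.9, 59.9 and 47.9 with PBS and 41.4, 28.0 and 51.6 with rmTGF-β1, overlapping groups with a log2 fold change of -0.41 (SE 0.19, edgeR QL adjusted p = 0.210). It was called without the third rmTGF-β1 library (-0.66, adjusted p = 0.0722). Adding rmTGF-β1 to rmCIRP lowered 1 of the 7 genes, where 10.5% of all genes were lower: Cd80, from 793, 757 and 846 to 719, 716 and 689, a log2 fold change of -0.18 (SE 0.06, edgeR QL adjusted p = 0.0354). This call was lost with no filter on low counts (adjusted p = 0.102), without the third rmCIRP library (-0.13, adjusted p = 0.226) or without the third library with both (-0.16, adjusted p = 0.115). Icosl, at -0.30 (SE 0.12, adjusted p = 0.107), was called without the first library with both (-0.41, adjusted p = 0.0475) and with no filter on low counts (-0.29, adjusted p = 0.0839). Both Icosl (-0.29) and Tnfrsf9 (-0.17, adjusted p = 0.0608) were called when only these 6 libraries entered the fit. WT cells with both factors had the least Cd80 mRNA of the 8 conditions, 708 ± 16.3 normalized counts (SD, n = 3).

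In the libraries labelled TLR4-/-, rmCIRP changed 0 of the 7 genes by edgeR's quasi-likelihood test, where 0% of all genes were called. At an unadjusted p under 0.05, 0 of the 7 genes and 1136 of all genes were found, and DESeq2 called 0 of the 7, with 7 genes higher and 26 lower among all. Cd274 had 182, 166 and 203 normalized counts with PBS and 161, 209.7 and 164 with rmCIRP. Cd40 had 255, 226 and 244 with PBS and 261, 224 and 253 with rmCIRP. The groups overlapped in both genes. The log2 fold changes were -0.04 (SE 0.23, 95% interval -0.50 to 0.43) for Cd274 and 0.03 (SE 0.10, 95% interval -0.18 to 0.24) for Cd40, and over the 7 genes they lay between -0.17 and 0.11 with a median of -0.04, against 0.00 over all genes. Summed macrophage markers were 333578 to 379121 normalized counts with rmCIRP and 345854 to 394752 with PBS. The remaining ligands overlapped too: Icosl had 225, 237 and 268 with PBS and 216, 187 and 246 with rmCIRP, and Cd86 had 307, 281 and 302 against 265, 255 and 311. The 4-1BB pair did as well, with Tnfsf9 at 381, 423 and 442 against 459, 453 and 426 and Tnfrsf9 at 412, 387 and 365 against 397, 353 and 346. Cd80 was the exception, with 1348, 1363 and 1387 against 1393, 1406 and 1395, groups that did not overlap and whose log2 fold change of 0.04 (SE 0.05, edgeR QL adjusted p = 0.952) was not called.

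The rmCIRP responses of the 2 genotypes differed, by the test of the difference itself, for 6 of the 7 genes. The response was lower in the labelled TLR4-/- libraries for 5 genes, where 14.3% of all genes were lower, and higher for 1, where 17.1% were higher. The median over the 7 genes was -1.61, against 0.03 over all genes. The differences in log2 response were -4.39 (SE 0.31) for Cd274, -3.26 (SE 0.14) for Cd40, -2.42 (SE 0.19) for Icosl, -1.61 (SE 0.29) for Cd86 and -0.84 (SE 0.14) for Tnfrsf9, with adjusted p from 2.19e-13 to 0.000248 by edgeR's quasi-likelihood test. For Cd80 it was 0.22 (SE 0.08, adjusted p = 0.0351), and this call was lost without the second WT library with rmCIRP (0.17, adjusted p = 0.136) and with no filter on low counts (0.20, adjusted p = 0.133). For Tnfsf9 it was -0.06 (95% interval -0.29 to 0.17) and was not called. These differences share the PBS and rmCIRP libraries of the within-genotype comparisons above. Sex and macrophage markers differ with the genotype label, and their part in the differences was not tested. The pool of lungs also cannot be told apart from the label.

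**Figure D2:**
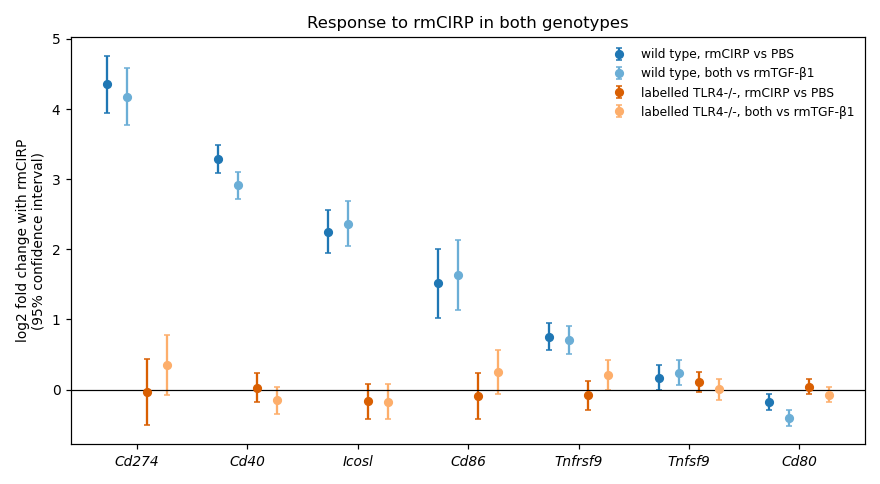
Log2 fold change with rmCIRP (vertical axis) for the 7 tested genes, without and with rmTGF-β1, in WT (blue) and labelled TLR4-/- (orange) cells; points are edgeR estimates and bars their 95% intervals. The WT estimates ran from 4.35 for Cd274 to -0.40 for Cd80, and the labelled TLR4-/- estimates stayed between -0.17 and 0.34, an upper end set by Cd274 with both factors that fell to -0.01 without the third library of that condition.

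In the labelled TLR4-/- libraries, both factors compared with rmTGF-β1 alone gave 0 of 7 calls by edgeR's quasi-likelihood test, where 2.69% of all genes were called. DESeq2 also gave 0 of 7, and 0 of the 7 had an unadjusted p under 0.05 by edgeR, where 2912 of the 16258 genes had one. The third library with both factors stood apart in 2 genes. Cd274 had 156, 214 and 269 normalized counts with rmTGF-β1 and 188, 234 and 399 with both, and Cd86 had 336, 314 and 385 against 338, 365 and 536. The log2 fold changes were 0.34 (SE 0.21) and 0.25 (SE 0.15). Without the third library with both factors they were -0.01 (SE 0.18) and 0.02 (SE 0.13), and the 7 genes lay between -0.16 and 0.15. The third library with rmTGF-β1 stayed in that fit and also held the most Cd274 and Cd86 of its condition. Its chi-square per degree of freedom was 12.4 and 16.2 against the first and second, which had 3.66 between them. With any 1 library of these conditions left out, the value of Cd274 ran from -0.01 to 0.56. The other genes overlapped between the groups: with both factors Cd40 had 318, 281 and 303 normalized counts, Icosl 242, 205 and 204, Cd80 1389.7, 1289.6 and 1235, Tnfsf9 335, 382 and 355, and Tnfrsf9 316, 376 and 388. Without the first library with both factors instead, Cd274 (0.55, adjusted p = 0.0770) and Tnfrsf9 (0.29, adjusted p = 0.0865) were called, and with no filter on low counts Cd274 was (0.35, adjusted p = 0.00326). Summed macrophage markers were 361491 to 378839 normalized counts with rmTGF-β1 and between 345203 and 431866 with both, or up to 377933 without the third library.

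The response to rmTGF-β1 alone in the labelled TLR4-/- libraries was small and included Cd40 again. It was called higher for 1 of the 7 genes and lower for 2, where 12.1% of all genes were higher and 11.7% lower. Cd40 went from 255, 226 and 244 normalized counts with PBS to 341, 284 and 369, a log2 fold change of 0.46 (SE 0.10, edgeR QL adjusted p = 0.00167). Tnfrsf9 went from 412, 387 and 365 to 324, 279 and 331 (-0.31, SE 0.10, adjusted p = 0.0409), and Tnfsf9 from 381, 423 and 442 to 350.3, 372 and 347 (-0.21, SE 0.07, adjusted p = 0.0420). None of the 3 pairs of groups overlapped. Those of Cd86, which was not called (log2 fold change 0.23), did not overlap either. They had 307, 281 and 302 with PBS and 336, 314 and 385 with rmTGF-β1. The calls of the 4-1BB pair were not stable: Tnfrsf9 lost its call without the first PBS library (-0.26, adjusted p = 0.147) or the second rmTGF-β1 library (-0.24, adjusted p = 0.152), and Tnfsf9 without the second or the third PBS library or without the first or the third rmTGF-β1 library, with adjusted p of 0.109 to 0.171. A genotype difference in the rmTGF-β1 response was called for 0 of the 7 genes and 0.0861% of all genes by edgeR's quasi-likelihood test, and for 0 of the 7 by DESeq2. At an unadjusted p under 0.05 by edgeR it was found for 0 of the 7 and 1686 of the 16258 genes. For Cd40 it was 0.02 (95% interval -0.30 to 0.34).

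With PBS alone, the genotypes differed in all 7 tested genes. Cells of each group came from a pool of lungs, so a difference of pool cannot be told apart from one of genotype. The labelled TLR4-/- libraries had more mRNA of 6 and less of 1, where 23.2% of all genes were higher and 24% lower, and the median log2 fold change was 1.06 over the 7 genes and -0.02 over all genes. Cd86 differed most, with 29.8, 42.9 and 52.0 normalized counts in WT and 307, 281 and 302 in labelled TLR4-/- libraries, a 7.13-fold ratio of means and a log2 fold change of 2.84 (SE 0.21, edgeR QL adjusted p = 1.60e-10). Icosl had 54.9, 59.9 and 47.9 in WT and 225, 237 and 268 in labelled TLR4-/- libraries, a log2 fold change of 2.16 (SE 0.15, edgeR QL adjusted p = 3.76e-11). The groups lay wide apart in both. Tnfsf9 (1.17, SE 0.08), Cd40 (1.06, SE 0.11) and Cd80 (0.59, SE 0.05) were higher without overlap as well. Cd274 was higher by 0.63 (SE 0.24, adjusted p = 0.0440), a call lost without the second WT library (0.52, adjusted p = 0.149) or the third labelled TLR4-/- library (0.56, adjusted p = 0.126). Tnfrsf9 was lower (-0.31, SE 0.10, adjusted p = 0.0158), with 404, 520.2 and 515 in WT against 412, 387 and 365, overlapping groups, and this call was lost without the second WT library (-0.23, adjusted p = 0.108).

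Macrophage markers moved in the same comparison. All 13 were higher in the labelled TLR4-/- libraries with PBS, by log2 fold changes of 1.49 to 2.81 with a median of 2.19, and their summed normalized count was 345854 to 394752 against 90890 to 99113 in WT. Ptprc, which encodes CD45 of blood cells, was higher by 2.27 and Cd68 by 1.89. The fibroblast markers did not move together: of 9, 1 was higher and 3 were lower, with a median of -0.01. Among all genes, 23.2% were higher and 24% lower. Summed dendritic cell markers were 402 to 424 normalized counts in WT and 659 to 713 in labelled TLR4-/- libraries, epithelial markers 41.6 to 61.6 against 189 to 199, and endothelial markers 576 to 849.6 against 285 to 367. Of the 8 T-cell genes, 3 were tested. Cd4 was higher in the labelled TLR4-/- libraries (33.2 ± 5.19 against 6.02 ± 1.11 normalized counts, SD, n = 3 each, log2 fold change 2.44), while Trac (154 and 149.9) and Lck (8.76 and 9.27) were not called, and Cd3g, Cd8a and Cd8b1 were at 0 in the PBS libraries of both genotypes. Of the 7 dendritic cell genes, Itgax was higher (461 against 188, log2 fold change 1.29), Zbtb46 (201 and 199.96) and Xcr1 (23.05 and 22.57) were not called, and Flt3 and Ccr7 had at most 2 reads in any PBS library. The part of these cells in the difference between genotypes was not tested.

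**Figure D3:**
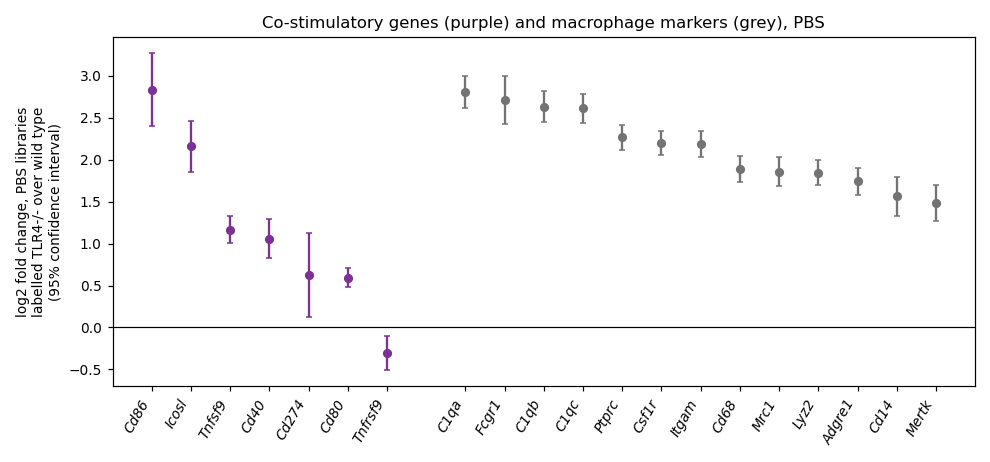
Log2 fold change of labelled TLR4-/- over WT libraries with PBS (vertical axis) for the 7 tested genes (purple) and 13 macrophage markers (grey); points are edgeR estimates and bars their 95% intervals. The markers lie between 1.49 and 2.81, a range that holds Icosl at 2.16, with Cd86 just above it at 2.84 and the other 5 genes below it.

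Over the 8 conditions, the 7 tested genes fell into different orders. Cd274 and Cd40 were highest in the 2 WT conditions with rmCIRP, whose libraries overlapped each other, and the next condition was lower by 8.13-fold for Cd274 and 3.43-fold for Cd40. Without the third labelled TLR4-/- library with both factors, the gap of Cd274 was 10.5-fold. For Cd274 the 4 labelled TLR4-/- conditions came next and overlapped their neighbours in the order, and the WT conditions without rmCIRP were lowest. For Icosl, WT with rmCIRP (259.8 ± 12.2), the 4 labelled TLR4-/- conditions (means of 217 to 243) and WT with both factors (211 ± 29.1) formed a chain in which each condition overlapped the next, and the WT conditions without rmCIRP stood apart at 54.2 ± 6.04 and 40.3 ± 11.8. Cd86, Cd80 and Tnfsf9 were higher in all 4 labelled TLR4-/- conditions than in any WT condition. Tnfrsf9 was the reverse, with means of 442 to 812 in WT and 311 to 388 in labelled TLR4-/- conditions, although the lowest WT library with PBS (404) lay below the highest labelled TLR4-/- library with PBS (412). WT cells with rmCIRP overlapped the labelled TLR4-/- libraries with PBS for Icosl and stayed below them for Cd86 (119 ± 14.3 against 297 ± 13.9). For Cd274 the labelled TLR4-/- libraries with PBS were at 0.0754 of the WT level with rmCIRP.

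The likeness of these patterns was described by Pearson's r of log2 normalized counts over the 8 condition means, which share their libraries with every value above. Among the genes themselves, Cd40 and Cd274 were most alike (r = 0.974), followed by Cd86 and Tnfsf9 (0.904), and Cd80 and Tnfrsf9 were most opposed (r = -0.907). Out of 12311 genes, those most like Cd274 were Dcp2, an mRNA decapping enzyme, Cd82, a tetraspanin, and Malt1, a protease of NF-kB signaling (r of 0.998 to 0.999). Those most like Cd40 were Setdb2, Tap2, a peptide transporter of antigen presentation, and Ifi205 (0.993 to 0.995). For Icosl they were Siglece, Csf3r and Slc15a3 (0.993 to 0.996), for Cd86 Nfya, Hcls1 and Fam20c (0.996 to 0.998), and for Cd80 Arpc2, Map4k2 and Skap2 (0.995 to 0.998). For Tnfsf9 they were Evi2a, Cntrl and Ptpn6 (0.994 to 0.997), and for Tnfrsf9 Gpr137c and the acute-phase genes Lcn2 and Saa3 (0.993 to 0.998).

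Other ligands of the same kind moved in both directions. Of 16 listed, 14 were tested. With rmCIRP 8 were higher and 4 lower in WT cells, where 19.8% of all genes were higher and 24.1% lower. The median log2 fold change of the 14 was 0.26, also when Tnfsf14, near 0 with rmCIRP, was set to no change. Icam1, an adhesion molecule of the immunological synapse, rose by 1.98 (SE 0.07), from 1057 to 1298 normalized counts with PBS to 4646 to 4973 with rmCIRP. Tnfsf18, which encodes GITR ligand, rose by 1.33 (SE 0.27), and Tnfsf4, which encodes OX40 ligand, by 1.94 (SE 0.52) on no more than 13 reads in a library. Vsir, which encodes the inhibitory ligand VISTA, fell from 660 to 671 normalized counts to 233 to 251, a log2 fold change of -1.47 (SE 0.06, edgeR QL adjusted p = 1.03e-14). Tnfsf14 was called lower on 4, 3 and 4 reads with PBS and 0, 1 and 0 with rmCIRP. In labelled TLR4-/- libraries rmCIRP gave 0 calls among the 14 by edgeR, where 0% of all genes were called. At an unadjusted p under 0.05, 0 of the 14 were found, beside 1136 of the 16258 genes. With PBS 8 of the 14 were higher than in WT and 0 lower, led by Tnfsf14 (2.74), Tnfsf18 (2.30), Cd48 (2.05), Ceacam1 (1.79) and Vsir (1.39). Among all genes, 23.2% were higher and 24% lower.

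Of the 14 listed receptors of the T-cell side, 6 passed the filter. Havcr2, which encodes TIM-3 and is known from myeloid cells too, had 379 ± 46.4 normalized counts in WT and 637 ± 73.2 in labelled TLR4-/- libraries with PBS (SD, n = 3 each). Others were close to absent: Pdcd1, which encodes PD-1, had at most 1 read in any library, Ctla4 had at most 2, and Cd40lg had 0 in all. With rmCIRP in WT cells, Cd28 fell from 61, 50 and 50 reads to 11, 5 and 11 (log2 fold change -2.53, SE 0.26), Tnfrsf8, which encodes CD30, rose by 2.36 (SE 0.36) and Icos by 0.99 (SE 0.23). The other 3 tested genes were not called, and the median of the 6 was 0.20. Among all genes, 19.8% were higher and 24.1% lower with rmCIRP in WT cells. In labelled TLR4-/- libraries none of the 6 was called with rmCIRP by edgeR, where 0% of all genes were called. At an unadjusted p under 0.05, 2 of them, Icos and Tnfrsf18, were found, beside 1136 of the 16258 genes. With PBS, Cd28 (2.06) and Havcr2 (0.75) were higher and Tnfrsf18 (-0.90) was lower than in WT. Among all genes, 23.2% were higher and 24% lower.

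The genes that carry the signal of CD40 and 4-1BB inside the cell, some of them its inhibitors, mostly rose in WT cells. With rmCIRP, 10 of the 12 listed genes were higher and 2, Map3k14 and Traf5, were lower. Among all genes, 19.8% were higher and 24.1% lower, and the median log2 fold change was 0.64 over the 12 genes against -0.02 over all. Traf1, an adaptor of TNF receptor family members, rose from 25.0, 28.0 and 29.1 normalized counts with PBS to 660.0, 632 and 723, a log2 fold change of 4.61 (SE 0.17, edgeR QL adjusted p = 2.14e-15). Tnfaip3 (2.38, SE 0.16) and Nfkbia (1.62, SE 0.10), both inhibitors of NF-kB signaling, and Birc3 (1.28, SE 0.06) and Nfkb2 (0.99, SE 0.06) also rose. With both factors against rmTGF-β1, again 10 were higher and 2 lower, where 20.5% of all genes were higher and 21.7% lower. In the labelled TLR4-/- libraries 0 of the 12 were called with rmCIRP by edgeR, where 0% of all genes were called. At an unadjusted p under 0.05, Birc2 (0.14, SE 0.05, adjusted p = 0.548) was found, beside 1136 of the 16258 genes. The genotype difference in response was called lower for 10 of the 12, where 14.3% of all genes were lower. With PBS, 6 were higher and 1 lower than in WT, led by Traf1 (0.87) and Tnfaip3 (0.49). Among all genes, 23.2% were higher and 24% lower.

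**Figure D4:**
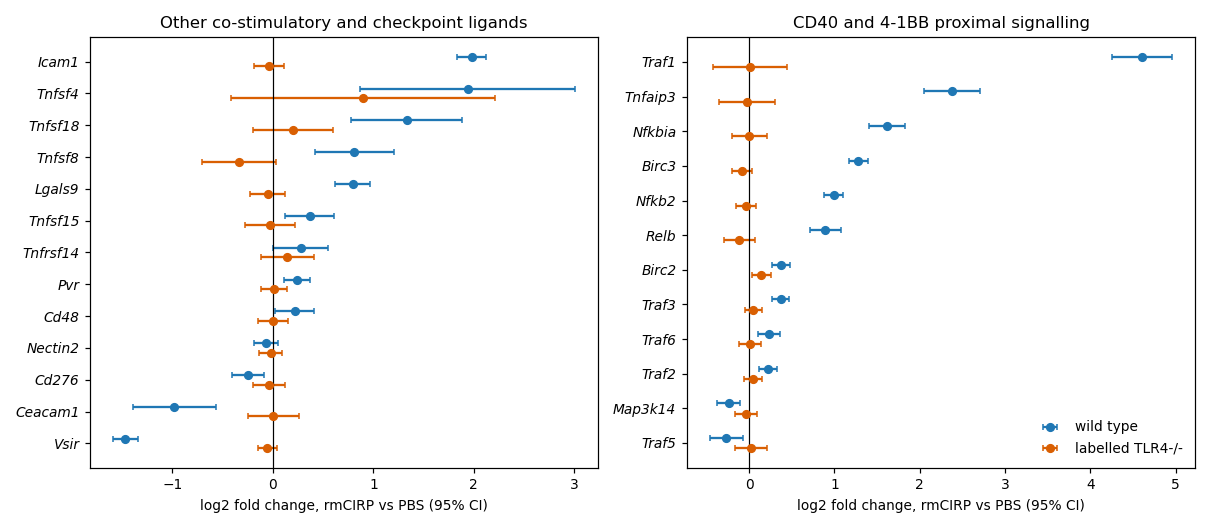
Log2 fold change with rmCIRP (horizontal axis) of 13 other co-stimulatory and checkpoint ligands (left) and 12 genes of CD40 and 4-1BB signaling (right) in WT (blue) and labelled TLR4-/- (orange) cells; points are edgeR estimates, bars their 95% intervals, and Tnfsf14 is left out for its low counts. Traf1 reached 4.61 in WT and 0.01 in labelled TLR4-/- cells.

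Markers of further cell types changed with rmCIRP in WT cells as well, where 19.8% of all genes were higher and 24.1% lower. Of the 7 dendritic cell genes, 3 were tested. Itgax (0.51) and Xcr1 (1.81) were higher, and Zbtb46 (0.09) was not called. The other 4 had at most 10 reads in any WT library with PBS or rmCIRP. The only B-cell gene tested, Pax5, had 35 to 69 reads in WT libraries with rmCIRP and 38 to 46 with both factors against at most 2 with PBS. Of the 8 T-cell genes, 3 were tested. Trac was lower (-1.61), Cd4 and Lck were not called, and Cd3d, Cd3e, Cd3g and Cd8b1 were at 0 with rmCIRP. Of the epithelial genes 2 were tested and both, Cdh1 (-2.65) and Krt8, were lower, and of the 4 endothelial genes 1 was higher and 1 lower. The fibroblast list had 2 genes higher and 5 lower, with a median of -0.24 and Col1a1 at -0.37 (SE 0.08). The part of these cells in the values of the co-stimulatory genes was not tested.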

How the data were processed

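RNA was measured in 24 libraries (TruSeq Stranded Total RNA, NextSeq 550). The authors aligned the reads with STAR to the mouse genome and deposited raw counts per gene made with HTSeq; the processing notes also name FastQC and the build NCBIM37. The annotation release and strand setting are not given in the sources used here. The 5 tally lines of each library (14.5% to 16.1% of its reads) were left out. Counts were tested with edgeR 4.0.16 (R 4.3.3; TMM, filterByExpr, quasi-likelihood, 1 mean per condition, all 24 libraries), with Benjamini-Hochberg adjustment over 16258 genes and a threshold of 0.1. Normalized counts used DESeq2 1.42.0 size factors. The SE was taken as the size of the log2 fold change over the root of F. The pipeline was tested on simulated data.

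The 8 genes, the other lists and the tests were chosen with earlier results of these data known. From each list, the called genes with the largest absolute change, at most 5 a comparison, were named; of patterns across conditions, the 3 genes with the highest r of log2(normalized count + 1), with a mean of at least 50. Ptprc, Cd68, Col1a1 and Tlr4 were named as checks, and other named list members were chosen after their values were seen. Exon lengths came from GENCODE M21, which matched 53292 of the 55291 names, and promoters from RefSeq. Alternatives were DESeq2's test, RLE scaling, no filter, a mean count of at least 10, the replicate number as a block, only the groups compared and each library left out. Depth limits precision through counting error only, and Pdcd1lg2 was too low to test.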

Additional observations from a re-analysis of the deposited data

Results flagged for a closer look

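The response to rmCIRP differed between the labelled TLR4-/- and the WT libraries, by the interaction term of edgeR's quasi-likelihood test, for 6 of the 7 tested genes. Among all genes tested, 14.3% had a lower and 17.1% a higher response in the labelled TLR4-/- libraries. The difference in log2 response was -4.39 for Cd274, -3.26 for Cd40, -2.42 for Icosl, -1.61 for Cd86 and -0.84 for Tnfrsf9. For Cd80 it was 0.22. In the first 5 genes, mRNA rose with rmCIRP in WT cells and no change was called in the labelled TLR4-/- libraries, and Cd80 fell in WT cells. The genotypes also differed with PBS alone. The mean of labelled TLR4-/- libraries with PBS was 2.50 times the WT mean with rmCIRP for Cd86 and 0.937 of it for Icosl. It was 0.0754 of that mean for Cd274, 0.212 for Cd40 and 0.478 for Tnfrsf9.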

How the results depend on the processing

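Same-numbered libraries had a mean correlation of deviations of 0.01 (-0.12 to 0.37 over 84 pairs), against -0.01 for differently numbered ones. Of the 24 libraries, 12 correlated best with their own number. A mean over all pairs cannot exclude a pairing between some of the conditions. With the replicate block, the number of the 7 genes called was the same in all 11 comparisons, and the log2 fold change of Tnfsf9 for both factors against rmTGF-β1 in labelled TLR4-/- libraries turned to -0.0005. Over all genes, the block moved the calls of that comparison from 437 to 810.

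Of the 7 genes, 3 instead of 1 were called for both factors against rmCIRP in WT cells when only the groups compared entered the fit, and 1 instead of 0 for both factors against rmTGF-β1 in labelled TLR4-/- libraries with no filter. Leaving out 1 library gave 0 to 2 calls for rmTGF-β1 in WT cells, 0 to 2 for both factors against rmCIRP in WT cells and 0 to 2 for both factors against rmTGF-β1 in labelled TLR4-/- libraries; the other member counts stayed within 1.5 times. Of the uncalled log2 fold changes, these turned sign in labelled TLR4-/- libraries with rmTGF-β1: Cd80 to -0.0115 with no filter, and Icosl to -0.0017 with RLE, -0.0144 with no filter, -0.0022 at a mean count of at least 10 and -0.0019 with DESeq2. For Cd40 the genotype difference in the rmTGF-β1 response turned to -0.0188 with no filter. With 1 library left out, uncalled values crossed 0 within these ranges. For rmTGF-β1 in WT cells these were -0.0145 to 0.0737 (Cd80), -0.2784 to 0.0879 (Cd86) and -0.0840 to 0.1593 (Cd274), and for both factors against rmCIRP -0.2203 to 0.1515 (Cd86). In labelled TLR4-/- libraries they were -0.0220 to 0.0834 (Cd40) and -0.1799 to 0.0363 (Cd274) with rmCIRP, -0.0392 to 0.0534 (Cd80) and -0.0502 to 0.0784 (Icosl) with rmTGF-β1, and -0.0145 to 0.5602 (Cd274) and -0.0524 to 0.0475 (Tnfsf9) for both factors against rmTGF-β1. For the genotype difference in the rmTGF-β1 response they were -0.0952 to 0.1193 (Cd40), -0.0760 to 0.0227 (Cd80), -0.0301 to 0.3497 (Cd274) and -0.1289 to 0.0014 (Tnfsf9), and for the interaction in WT cells -0.1177 to 0.3103 (Cd86), -0.0820 to 0.3548 (Icosl) and -0.1171 to 0.0558 (Tnfrsf9). The cause was not tested. No called value of the 7 genes turned sign or moved by over 1.5 times. Over all genes, calls for both factors against rmTGF-β1 in labelled TLR4-/- libraries moved from 437 to 902 with DESeq2, 1580 with no filter and 0 with only the groups compared, and to between 0 and 2674 with 1 library left out (1 without the third library with both factors). The genotype difference in the rmTGF-β1 response moved from 14 to 163, 563 and, at a mean count of at least 10, 23, and the interaction in WT cells from 8 to 37, 198 and, with only the groups compared, 125. For rmCIRP in labelled TLR4-/- libraries, 0 became 33 with DESeq2, 149 with no filter and 29 with only the groups compared. For rmTGF-β1, calls fell from 2019 to 1253 without the third PBS library and 1029 without the second rmTGF-β1 library in WT cells, and from 3884 to 2517 without the third rmTGF-β1 library in labelled TLR4-/- libraries.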
